A study of Danio rerio with 15 samples.

Results

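The genes described here encode neuropeptides, peptide hormones and the proteins that cut and pack them, in brains of zebrafish (Danio rerio) exposed to dibromoacetonitrile (DBAN), a brominated disinfection by-product of drinking water. With earlier results of these data known, they were chosen by name as a list of 39 gene symbols. Of these, 33 had a row among the 14971 genes of the count tables and are the members of this account. The other 6 symbols, nts, sst3, cckb, pnoca, ccka and cartpt, were not analysed here.

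Brain poly(A) RNA was sequenced after 56 days in water with DBAN at 0, 40 or 200 µg/L for females and at 0 or 40 µg/L for males. Each of the 5 groups had 3 libraries, 9 of females and 6 of males. The control fish of each sex were kept in the same way without DBAN, and the labels name no strain, age, genotype, solvent or hour of sampling. Whether a library holds 1 fish or several is not stated, so a p-value here refers to the spread among libraries, which may in part be technical.

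Neuropeptides are made as long precursors in the secretory pathway of neurons. Prohormone convertases cut the precursors at basic residues inside dense-core granules, granins help to form the granules, and the mature peptides are released to act on G protein-coupled receptors. In the fish brain many of these neurons lie in the hypothalamus and preoptic area, where they act on feeding, stress, reproduction and the pituitary. A brain dissection therefore samples small, localised cell groups for many of these genes, and in bulk RNA fewer cells of a type and less RNA per cell cannot be told apart.

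Total counts ranged from 10488947 to 49388334 per library. They did not overlap between the groups of females, nor between female controls (18365050 to 22630829) and male controls (35666401 to 42122528), so depth and group cannot be told apart in those comparisons. Among values of 1 to 40, between 40.5% and 49.6% were multiples of 4, where even spacing would give 25%. The cause of this excess was not tested. Rare genes, here genes without counts in 10 or more of the 14 libraries other than the one considered, had a median count that differed between libraries. It was 8 to 11 in the controls, and in replicates 1, 2 and 3 it was 28, 8 and 35 for females at 40 µg/L, 10, 17 and 8 for females at 200 µg/L, and 39, 40.5 and 132 for the exposed males. A level under 3 times this median is called below the floor of its library, and its size is not read. All 8 neuronal marker genes chosen for the tissue check were above 0 in every library, with a summed level of 8533 to 11612 CPM (counts scaled to a common library size with TMM factors).

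The pituitary was nearly absent from the dissections by its defining genes. The growth hormone gene gh1 was at 0 in all 15 libraries, and the prolactin gene prl at 0 to 3.50 CPM. The summed level of 10 pituitary genes was 1.81 to 9.62 CPM in controls and females at 40 µg/L, 4.23 to 8.54 CPM in females at 200 µg/L and 0.848 to 5.14 CPM in males at 40 µg/L.

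Of the 33 members, 22 had a median of at least 10 CPM over the 15 libraries and 24 were above 0 in every library. The hypocretin gene hcrt, the agouti-related peptide gene agrp, the gonadotropin-releasing hormone genes gnrh2 and gnrh3, kiss2 and grp stayed at 5.82 CPM or less in every library. The spread between libraries, as edgeR's biological coefficient of variation, ran from 0.191 for scg5, which encodes the chaperone 7B2 of the convertase Pcsk2, to 1.95 for grp in females. The members' median was 0.431, beside 0.444 over all 12601 genes tested in females, and 0.397 beside 0.496 over 12454 genes in males.

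**Figure D1:**
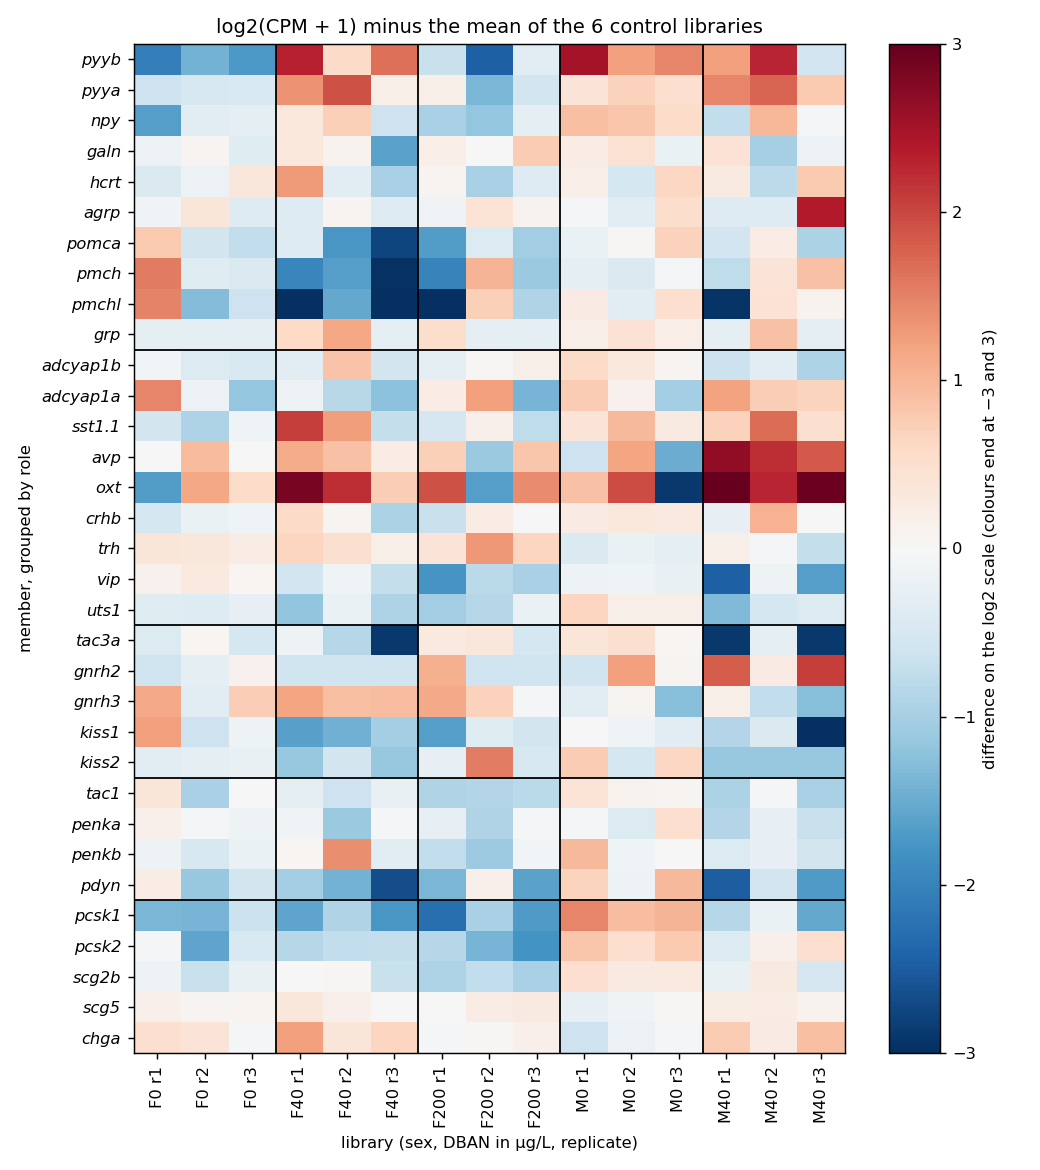
Heat map of log2(CPM + 1) of the 33 members (rows, grouped by role) in the 15 libraries (columns; F female, M male, the number is DBAN in µg/L, r the replicate), as the difference from the mean of the 6 control libraries. pyyb, pcsk1 and pcsk2 separate the female from the male controls, and pmch and pmchl share their lowest library in 4 of the 5 groups.

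Tests were made with edgeR's quasi-likelihood test, with p-values adjusted by Benjamini-Hochberg over all tested genes and a call at an adjusted p under 0.05. These were 6 comparisons. They share control libraries, so their results are given side by side and not as separate evidence.

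Between the controls of the 2 sexes, pcsk1, pcsk2 and pyyb passed, all lower in females. pcsk1, the prohormone convertase that makes the first cuts in many precursors (chromosome 21, 11685009 to 11722274 in the deposited tables), was at 14.2, 13.8 and 24.0 CPM in replicates 1, 2 and 3 of the female controls and at 107, 73.1 and 78.1 CPM in the male controls. All female values lay below all male values, and the female mean was lower by 2.31 on the log2 scale (log2 fold change -2.31 ± 0.39 SE, adjusted p = 0.0139, edgeR). pcsk2, the convertase that acts later in the granule (chromosome 13, 912123 to 977652), was at 78.0, 26.7 and 58.9 CPM in female and 145, 116 and 141 CPM in male controls, again without overlap (log2 -1.29 ± 0.33, adjusted p = 0.0479, edgeR).

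pyyb, which encodes a peptide YY, a member of the neuropeptide Y family known for lowering food intake in vertebrates (chromosome 12, 10304407 to 10315039), was at 0.319, 1.05 and 0.652 CPM in female controls. In male controls it was at 29.6, 11.7 and 14.0 CPM. The female values rest on 7, 20 and 16 counts, under the floors of 24, 33 and 24 counts, so the direction is read here and the size of the difference is imprecise (log2 -4.77 ± 0.87, adjusted p = 0.0174, edgeR). The paralogue pyya was at 22.0, 24.3 and 24.7 CPM in female and 45.1, 56.4 and 49.0 CPM in male controls. npy, the neuropeptide Y gene, was at 16.9, 43.4 and 45.9 CPM in female and 105, 99.2 and 81.9 CPM in male controls. The groups did not overlap at either gene, but neither passed over all genes (adjusted p = 0.105 and 0.106, edgeR).

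Between the controls 3 of 33 members tested passed, all lower in females, beside 4.4% of all 13149 genes (2.31% higher and 2.09% lower in females). By unadjusted p under 0.05 there were 7, or 21.2%, beside 20.4% of all genes, and DESeq2 called 6 of the 25 members to which it gave an adjusted p, the 3 above with pyya, npy and scg2b, or 24% beside 19.1% of all genes. No overlap was seen at 15 members, 12 of them lower in females. That is 45.5% of the members, beside 39.9% of all genes. The other members lower in females without overlap, none of which passed, had mean levels in females and males as follows. They were scg2b (388 and 622 CPM), crhb (27.4 and 41.1 CPM), uts1 (22.3 and 36.2 CPM), penkb (32.6 and 51.3 CPM), adcyap1b (268 and 418 CPM), sst1.1 and grp. sst1.1, a somatostatin gene, was at 59.5, 46.2 and 80.4 CPM in female and 116, 173 and 106 CPM in male controls. grp, the gastrin-releasing peptide gene, was at 0 in all female controls and at 0.409, 0.658 and 0.406 CPM in male controls, whose floors were 0.490, 0.555 and 0.608 CPM. Higher in females without overlap were trh, the thyrotropin-releasing hormone gene (118 and 77.2 CPM, adjusted p = 0.124), vip and scg5, none past the test. The members' median log2 fold change was -0.55, or -0.44 with the member at 0 in a whole group set to no change, beside 0.03 over all genes.

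Markers of brain regions and cell types also differed between the controls. The summed level of 9 cerebellum and hindbrain genes was 3216 to 3758 CPM in female and 1799 to 2455 CPM in male controls, and that of 6 glial genes 1395 to 1686 and 1934 to 2194 CPM, both without overlap. The cerebellum and hindbrain sum was mostly zic1 in every library (3001 to 3512 CPM in female and 1512 to 2077 CPM in male controls). Of the 8 genes of that list tested, 5 were lower and 3 higher in females, with a median log2 fold change of -0.32. The summed level of 8 telencephalon genes was 173 to 288 and 261 to 395 CPM and overlapped. That of 7 blood genes was 1290 to 2868 and 1585 to 9126 CPM and overlapped, with all 7 lower in females. That of 10 pineal and retina genes was 49.8 to 97.4 and 32.1 to 46.5 CPM, without overlap. Of these lists and the neuronal one, foxg1a, tbr1b, cbln1, slc1a2b and sypa were called lower in females (log2 -3.48, -3.08, -0.85, -0.61 and -1.93) and elavl4 higher (0.68). The part of these levels in the differences of the peptide genes was not tested. The pcsk1 call ended without female control replicate 2 or male control replicate 1 or 2 (adjusted p = 0.0577 to 0.0774). The pyyb call ended without female control replicate 2 or 3 or male control replicate 1 or 2 (0.0547 to 0.0767), and that of pcsk2 without any 1 library but female control replicate 1 (0.101 to 0.153).

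**Figure D2:**
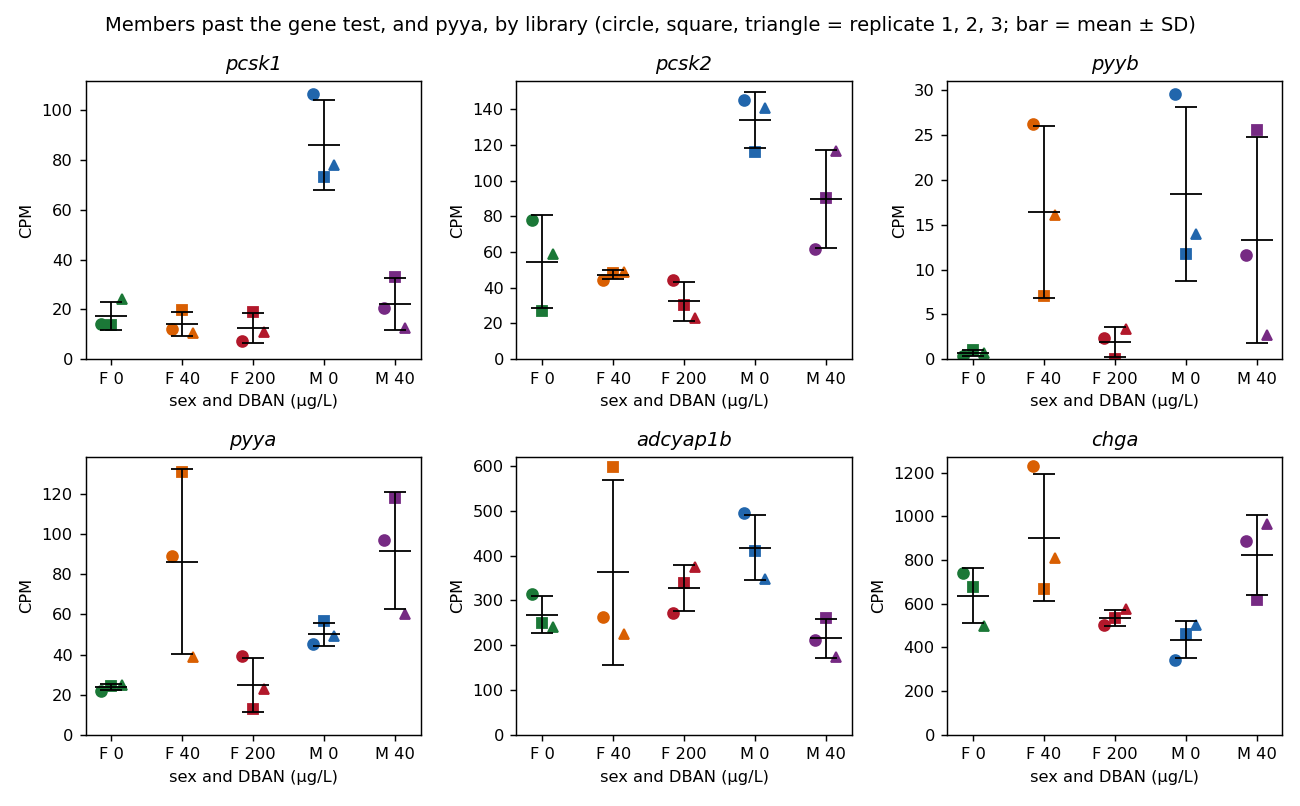
CPM of the 5 members that passed in any comparison, and of pyya, in each library (circle, square and triangle are replicates 1, 2 and 3; bars are mean ± SD, n = 3) by sex and DBAN in µg/L, each axis from 0. pcsk1 lies at 73.1 to 107 CPM in male controls and at 7.16 to 33.1 CPM in the other 12 libraries.

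In males at 40 µg/L pcsk1 and adcyap1b fell and chga rose against male controls. Of the 5 processing and granule members 1 was called lower and 1 higher, beside 7.25% and 8.38% of all genes. pcsk1 fell to 20.6, 33.1 and 12.5 CPM in exposed replicates 1, 2 and 3, from 73.1 to 107 CPM in controls (mean 22.0 ± 10.4 against 86.0 ± 18.1 CPM; log2 fold change -1.97 ± 0.39, adjusted p = 0.0218, edgeR). The value of exposed replicate 3 lies just above its floor of 12 CPM. Each exposed library was below each control. The exposed males thereby lay beside the female controls, whose values reached 24.0 CPM. pcsk2 was at 61.6, 90.5 and 117 CPM in exposed and 116 to 145 CPM in control males, overlapped and did not pass (adjusted p = 0.190).

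adcyap1b, which encodes the pituitary adenylate cyclase-activating peptide PACAP (chromosome 2, 31297150 to 31302661), fell in the exposed males. It was at 211, 261 and 173 CPM against 494, 410 and 348 CPM in the controls, without overlap (log2 -0.96 ± 0.21, adjusted p = 0.0306, edgeR). chga, the chromogranin A gene of dense-core granules (chromosome 20, 27020201 to 27046006), rose. It was at 889, 618 and 966 CPM in exposed and 340, 463 and 504 CPM in control males, without overlap (log2 0.92 ± 0.22, adjusted p = 0.0379, edgeR). The gene of another granule protein, scg2b, was at 451 ± 127 and 622 ± 56.7 CPM in exposed and control males (adjusted p = 0.211).

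Several members of the opioid, tachykinin and releasing-peptide groups had no overlap in males and did not pass. pdyn, the dynorphin precursor gene, was at 7.94, 32.7 and 14.3 CPM in exposed and 77.6, 43.8 and 96.3 CPM in control males. The groups did not overlap (log2 -1.98 ± 0.56, adjusted p = 0.0554). uts1, which encodes urotensin 1 of the corticotropin-releasing hormone family, was at 10.7, 19.4 and 21.2 CPM against 44.5, 32.2 and 31.9 CPM (log2 -1.08 ± 0.34, adjusted p = 0.0727). tac1, the substance P gene, and penkb, a proenkephalin gene, were also lower without overlap (adjusted p = 0.126 and 0.179). The groups overlapped at the other proenkephalin gene penka (means 75.9 and 119 CPM in exposed and control males), at vip (17.5 and 34.4 CPM), for vasoactive intestinal peptide, and at crhb (44.1 and 41.1 CPM), for corticotropin-releasing hormone.

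The neurohypophysial genes were higher in exposed males without passing. avp, which encodes the fish vasopressin homologue vasotocin, was at 121, 87.7 and 67.6 CPM in exposed males and at 11.5, 42.3 and 5.83 CPM in control males, without overlap (log2 2.21 ± 0.71, adjusted p = 0.0781). With 1 library left out its log2 fold change ran from 1.76 to 3.39, the highest without control replicate 2, where it passed (adjusted p = 0.0447, edgeR). oxt, which encodes isotocin, the fish oxytocin homologue, was at 1045, 641 and 1008 CPM against 240, 507 and 16.7 CPM, also without overlap (log2 1.81 ± 0.97, adjusted p = 0.268). The control values of oxt alone spanned 16.7 to 507 CPM. pyya was at 97.0, 118 and 60.2 CPM in exposed and at 45.1 to 56.4 CPM in control males (log2 0.87 ± 0.27, adjusted p = 0.0709), again without overlap.

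kiss2, a kisspeptin gene of the reproductive axis, was at 0 in all 3 exposed male libraries and at 2.72, 0.535 and 2.38 CPM in the controls. The floors in the exposed libraries were 4.55, 2.70 and 12 CPM, close to or above every control value, so no fold is given. kiss1 was at 4.17, 5.98 and 0 CPM in exposed and 8.39, 7.57 and 6.57 CPM in control males. tac3a, the neurokinin B gene, was at 0, 5.16 and 0 CPM in exposed and 8.54, 9.32 and 6.74 CPM in control males. The groups did not overlap at either gene and neither passed (adjusted p = 0.693 and 0.553, edgeR), and all their control values lie under the floor of exposed replicate 3.

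In males 3 of 33 members tested passed, 1 higher and 2 lower, beside 15.6% of 12454 genes (8.38% higher and 7.25% lower). No overlap was seen at 14 members, 5 higher and 9 lower in the exposed, or 42.4% beside 44.6% of all genes. Both shares of the members are below those over all genes. Their median log2 fold change was -0.40 (-0.33 with kiss2 set to no change), beside -0.16 over all genes. Neuronal genes chosen for the tissue check were lower in part too: syt1a, elavl3 and snap25a fell by 1.04, 1.1 and 0.68 on the log2 scale (adjusted p = 0.0145, 0.0280 and 0.0469, edgeR). Of the 8 genes, 6 had a negative and 2 a positive log2 fold change. Those 2 were snap25b (2224 to 3206 CPM in exposed and 1753 to 2127 CPM in control males) and elavl4 (1477 to 2242 and 1149 to 1334 CPM). Both were without overlap and were not called. The glial sum was 1263 to 1773 CPM in exposed and 1934 to 2194 CPM in control males, without overlap, and the glial gene slc1a2b fell by 0.83. Of the 6 glial genes tested, 4 were lower and 2 higher. Among the higher ones, mbpb was at 154 CPM or more in exposed and at 136 CPM or less in control males, and was not called. The cerebellum and hindbrain sum was 1212 to 2637 and 1799 to 2455 CPM and overlapped, while 2 of its genes, pvalb7 and ca8, fell by 2.07 and 2.44 on the log2 scale. Among the 7 genes of that list tested, 4 were lower and 3 higher, with a median log2 fold change of -0.0005. The telencephalon sum was 513 to 709 against 261 to 395 CPM, with eomesa and neurod6b called higher and emx2 lower. The pineal and retina gene gnat2 was called lower. It was at 0 in all exposed males and at 1.84, 1.81 and 1.22 CPM in controls, under the floors of the exposed libraries. Their part in these results was not tested.

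The exposed male libraries were unlike each other. Replicate 2 lay nearest of the 3 to the control mean at 18 of the 33 members, replicate 3 at 9 and replicate 1 at 3, with ties at 3 members that had values of 0. Below the control mean were 21, 18 and 23 members in replicates 1, 2 and 3. Without replicate 2, 11 members passed, 1 higher and 10 lower, or 33.3% beside 24.5% of all genes in the same fit. Those 10 were pcsk1, adcyap1b, pdyn, npy, scg2b, tac1, vip, tac3a, kiss2 and grp, of which the last 3 were at 0 in both remaining libraries. In replicate 3 vip, at 11.5 CPM, lies under its floor of 12 CPM. The pcsk1 call ended without any 1 male control or exposed replicate 1 (adjusted p = 0.0583 to 0.0924). Those of adcyap1b (0.0526 to 0.114) and chga (0.0777 to 0.131) ended without any 1 library but exposed replicate 2. DESeq2 called 8 of 32 members, or 25% beside 26% of all genes. They were these 3, avp and pyya as higher, and pdyn, uts1 and kiss2 as lower.

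**Figure D3:**
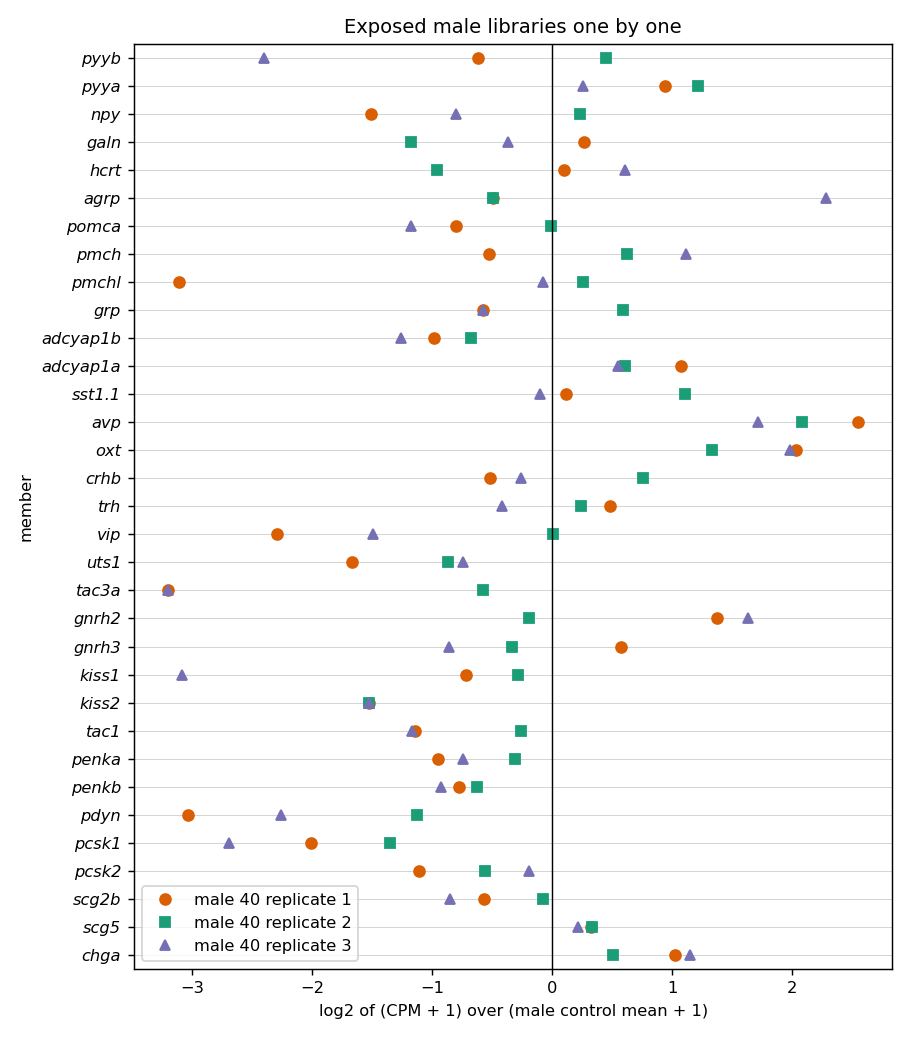
Each point is 1 exposed male library (40 µg/L), as log2 of its CPM + 1 over the male control mean + 1, for the 33 members in order of role; 0 is the control mean. Replicate 2 (squares) lies nearest to 0 at 18 members, and avp and oxt lie to the right in all 3.

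Females at 40 µg/L were next compared with female controls. The smallest p-values were at the peptide YY genes, followed by kiss1 and pmch, and no member passed over all genes. pyya was at 88.8, 131 and 38.9 CPM in replicates 1, 2 and 3 of the exposed females and at 22.0, 24.3 and 24.7 CPM in the controls. All exposed libraries lay above all controls (log2 fold change 1.87 ± 0.47, adjusted p = 0.0948, edgeR). pyyb was at 26.3, 7.08 and 16.1 CPM against the control values of at most 1.05 CPM given above (log2 4.61 ± 1.18, adjusted p = 0.103). The exposed values were above the floors of 2.16, 0.733 and 2.42 CPM. The control values were under theirs, so the direction is read and the size is imprecise.

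At 200 µg/L the peptide YY genes had lower mean levels than at 40 µg/L. pyya was at 39.3, 12.8 and 22.7 CPM and pyyb at 2.41, 0 and 3.32 CPM in replicates 1, 2 and 3, and both overlapped with the controls. The pyyb value of replicate 2 lies under its floor of 4.78 CPM. Between the female doses the log2 fold change was -1.78 ± 0.46 for pyya (adjusted p = 0.0614) and -3.09 ± 1.1 for pyyb (adjusted p = 0.141, edgeR), with no overlap at pyyb. DESeq2 called pyya and pyyb at 40 µg/L against controls (adjusted p = 0.00293 and 0.000565) and between the doses (adjusted p = 0.00375 and 0.0248). The telencephalon sum was 188 to 275 CPM at 200 µg/L and 715 to 1006 CPM at 40 µg/L, with neurod6b called lower at 200 µg/L (log2 -1.69, adjusted p = 0.0207, edgeR), and its part in these differences was not tested.

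pmch and pmchl encode precursors of melanin-concentrating hormone, a hypothalamic peptide that lightens skin colour in fish and acts on feeding. pmch was at 8.96, 11.3 and 3.95 CPM in females at 40 µg/L and at 112, 28.9 and 27.4 CPM in the controls, without overlap (log2 -2.80 ± 0.90, adjusted p = 0.184). pmchl was at 37.7, 144 and 22.5 CPM against 1168, 168 and 272 CPM, without overlap (log2 -2.98 ± 1.60, adjusted p = 0.462). In females at 200 µg/L pmchl ran from 4.98 CPM in replicate 1 to 681 CPM in replicate 2, so that single libraries spanned more than the groups.

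The order of libraries within groups was compared for 4 pairs of related genes. The order of the 3 libraries was the same for pmch and pmchl in 3 of the 5 groups, and the same library was lowest in 4 and highest in 4. The counts were also 3, 4 and 4 for avp and oxt. In each of the 4 pairs the genes lie on different chromosomes. For pyya and pyyb the order matched in 1 of the 5 groups, with the same lowest library in 3 and the same highest in 1. For pcsk1 and pcsk2 these counts were 1, 2 and 1. These matches are a description, and the genes were paired after their values were seen.

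**Figure D4:**
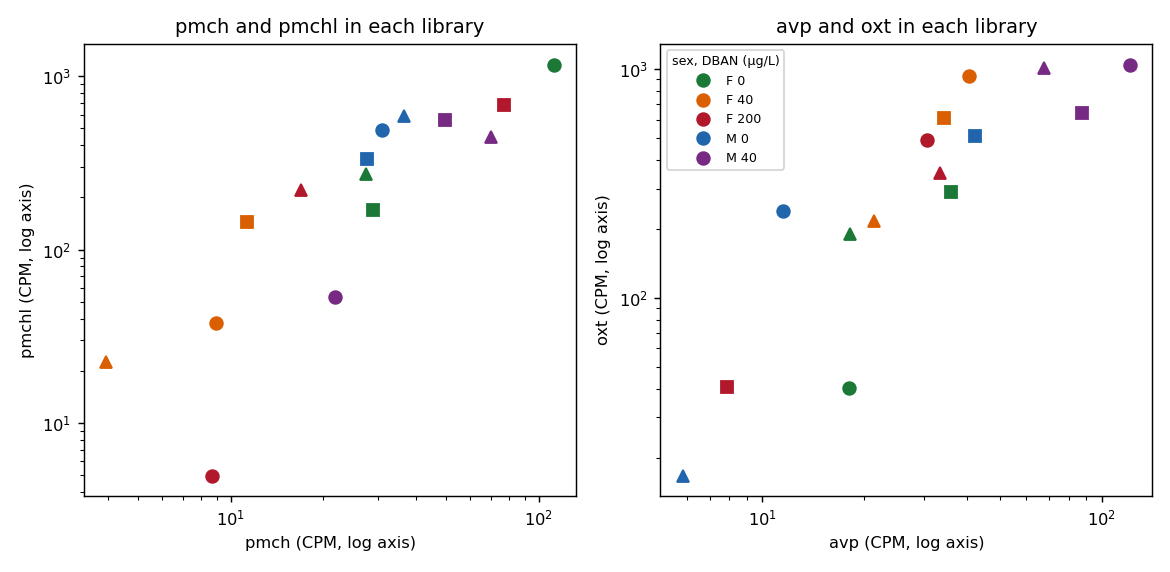
Levels in each of the 15 libraries, on log axes in CPM, of pmchl against pmch and of oxt against avp; colours are the groups and the symbols circle, square and triangle replicates 1, 2 and 3. pmchl runs from 4.98 to 1168 CPM and oxt from 16.7 to 1045 CPM, and single groups span much of either range.

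Other members at 40 µg/L in females, none of which passed, are given next. sst1.1 was at 377, 211 and 53.8 CPM against 59.5, 46.2 and 80.4 CPM in controls and overlapped (log2 1.79 ± 0.59, adjusted p = 0.187). kiss1 was at 2.06, 2.47 and 3.67 CPM against 21.2, 5.17 and 7.46 CPM, without overlap, and replicate 1 of the exposed females lies under its floor of 2.16 CPM. kiss2 was at 0, 0.519 and 0 CPM against 0.775, 0.791 and 0.897 CPM, all under the floors of their libraries, and at 0.875, 5.44 and 0.581 CPM at 200 µg/L. oxt was at 934, 609 and 217 CPM in exposed and 40.1, 291 and 190 CPM in control females (adjusted p = 0.496). pomca, the precursor of melanocortins and beta-endorphin, was at 9.45, 3.05 and 1.04 CPM against 22.4, 8.33 and 7.18 CPM (adjusted p = 0.422). Its value in replicate 3 of the exposed females lies under the floor of 2.42 CPM.

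Of the 31 members tested in females none passed at 40 µg/L, beside 0.238% of 12601 genes. By unadjusted p under 0.05 there were 5, or 16.1%, beside 15.3% of all genes, and DESeq2 called 4 of 26 (pyya, pyyb and sst1.1 higher, pmch lower), or 15.4% beside 8.64% of all genes. No overlap was seen at 7 members, 2 higher and 5 lower, or 22.6% beside 25% of all genes. The median log2 fold change of the members was 0.06, or 0 with grp, which was at 0 in the controls, set to no change, beside -0.03 over all genes. pcsk1, at 12, 19.8 and 10.5 CPM in the exposed females, overlapped with the controls (log2 -0.30 ± 0.44, adjusted p = 0.859). The summed level of telencephalon genes was 715 to 1006 CPM in these exposed females against 173 to 288 CPM in the controls, and that of cerebellum and hindbrain genes 1568 to 2864 against 3216 to 3758 CPM. The telencephalon gene foxg1a was called higher (log2 5.14, adjusted p = 0.0467, edgeR). It was at 58.6, 102 and 47.5 CPM against 1.46, 0.633 and 3.75 CPM, and control replicate 2 lies under its floor of 1.74 CPM. In that list 7 genes were higher and 1 lower. The part of these regional levels in the members' differences was not tested.

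At 200 µg/L the leading member was vip, for vasoactive intestinal peptide. It was at 10.7, 21.7 and 19.1 CPM in the exposed and 42.2, 47.9 and 40.6 CPM in the control females, and at 25.6, 35.2 and 23.1 CPM at 40 µg/L. The 200 µg/L group lay below the controls and below the 40 µg/L group without overlap (log2 -1.34 ± 0.31 against controls, adjusted p = 0.159, edgeR; adjusted p = 0.0104, DESeq2). scg2b, which encodes secretogranin 2 and is a source of secretoneurin, was at 257, 291 and 247 CPM against 441, 305 and 417 CPM, without overlap (log2 -0.54 ± 0.22, adjusted p = 0.388). tac1 was at 29.3, 29.6 and 31.4 CPM against 71.3, 27.9 and 56.5 CPM, and overlapped. The cerebellum and hindbrain sum was 1746 to 3088 CPM at 200 µg/L against 3216 to 3758 CPM in controls, without overlap. Of its genes tested, 3 were lower and 4 higher. The telencephalon sum overlapped. The summed level of 10 pineal and retina genes was 57.1, 1202 and 82.1 CPM in replicates 1, 2 and 3 (controls 49.8 to 97.4). That of 7 blood genes was 17827, 1594 and 2256 CPM (controls 1290 to 2868). In replicates 1, 2 and 3 at 40 µg/L the pineal and retina sum was 257, 91.8 and 205 CPM. The blood sum there was 19411, 2682 and 7381 CPM. Their part in these differences was not tested.

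At this dose 0 of 31 members passed by edgeR, beside 0.0556% of all genes, and 1 of 25 by DESeq2, or 4% beside 3.89%. By unadjusted p under 0.05 there were 4, or 12.9%, beside 10.8% of all genes. No overlap was seen at 3 members, or 9.68% beside 17.9% of all genes. The median log2 fold change was -0.13 beside 0.00 over all genes. Against the 40 µg/L group 0 of 31 passed, beside 3.93% of all genes, while 9 (29.0%) had an unadjusted p under 0.05, beside 21.1%. No overlap was seen at 7 members, 6 of them lower at 200 µg/L, or 22.6% beside 25.3%. DESeq2 called 6 of 26 between the doses, or 23.1% beside 14.5% of all genes, pmch as higher at 200 µg/L and pyya, pyyb, sst1.1, scg2b and chga as lower. scg2b was at 480, 498 and 307 CPM at 40 µg/L, above all its values at 200 µg/L (log2 -0.69 ± 0.22, adjusted p = 0.103, edgeR). chga was at 501, 535 and 574 CPM at 200 µg/L and at 1228, 667 and 811 CPM at 40 µg/L, without overlap (log2 -0.75 ± 0.23, adjusted p = 0.102, edgeR). It passed without replicate 2 at 40 µg/L, and pyya passed without replicate 1 at 200 µg/L.

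**Figure D5:**
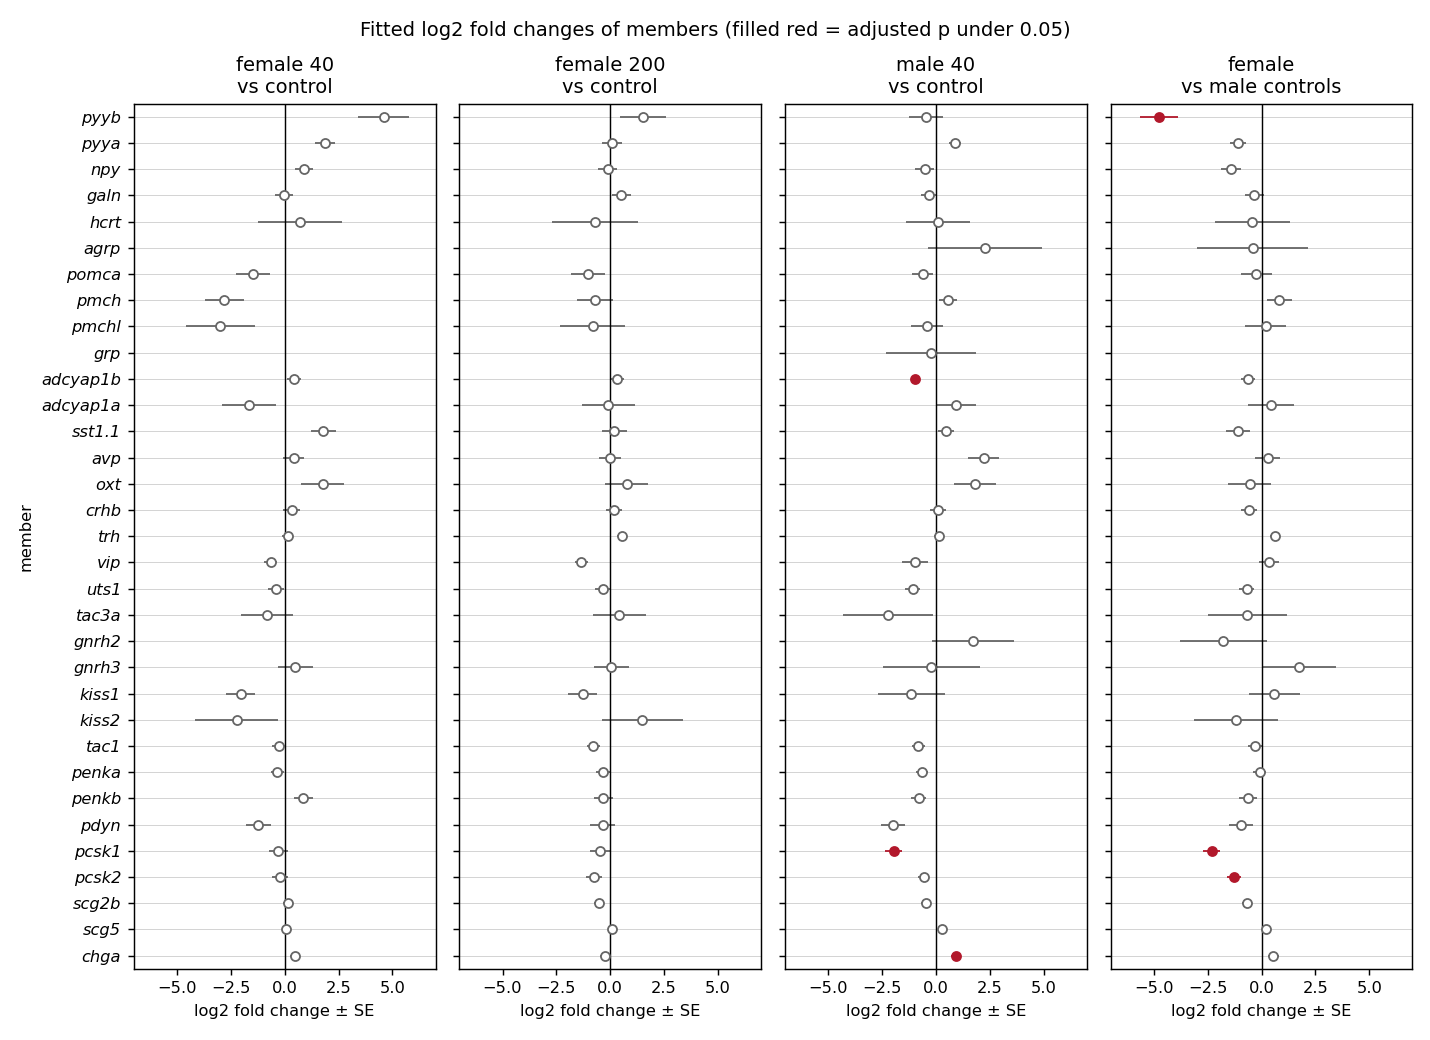
Fitted log2 fold changes ± SE (horizontal) of the members (vertical, by role) in 4 comparisons, named first group against second; filled red points have an adjusted p under 0.05 and members at 0 in a whole group are left out. Red points are pcsk1, adcyap1b and chga in exposed males and pcsk1, pcsk2 and pyyb between the controls.

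Whether the 40 µg/L difference itself differed between the sexes was tested in a joined fit of 12 libraries. None of 33 members passed by edgeR, beside 0% of 13149 genes. By unadjusted p under 0.05 there were 7, or 21.2%, beside 14.5% of all genes. The leading member was pyyb, with a mean of 0.675 CPM in control and 16.5 CPM in exposed females and of 18.4 and 13.3 CPM in males (difference of log2 fold changes, female minus male, 5.07 ± 1.11, adjusted p = 0.156). For pmch, at 56.1 and 8.06 CPM in females and 31.8 and 47.1 CPM in males, the difference was -3.37 ± 0.83 (adjusted p = 0.179). DESeq2 called these 2 of 33 members (adjusted p = 0.000684 and 0.00391), or 6.06% beside 3.66% of all genes, and edgeR called pyyb without exposed male replicate 2. The female control values of pyyb were under their floors, so the size of its difference is imprecise. In males at 40 µg/L pyyb was at 11.7, 25.5 and 2.67 CPM, the last under its floor of 12 CPM. There pmch was at 21.7, 49.5 and 70.1 CPM, against 30.9, 27.7 and 36.6 CPM in male controls, and overlapped. For pcsk1 the difference was 1.66 ± 0.53 (adjusted p = 0.206), so that a fall in males and none past the test in females is not shown to be a difference between the sexes.

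Genes that act with the members were counted from lists. Of 14 other processing and granule genes with a row, 13 were tested in males. There 8 had a negative and 5 a positive log2 fold change, with a median of -0.26 beside -0.16 over all genes. Beside 8.38% of all genes called higher in males, 3 of these 13 were called higher. They were furinb, a furin convertase of the constitutive pathway (701, 517 and 613 CPM in exposed against 183, 262 and 259 CPM in control males; log2 1.38 ± 0.19, adjusted p = 0.00989), pcsk7, a related convertase (log2 0.96 ± 0.17, adjusted p = 0.0163), and tpst1, a tyrosylprotein sulfotransferase (log2 0.65 ± 0.14, adjusted p = 0.0285). In females at 40 µg/L the same genes had log2 fold changes of 0.71, 0.85 and 0.70 and did not pass (adjusted p = 0.153, 0.0903 and 0.107). pcsk1 and furinb had opposite signs in exposed males. Between the controls furinb was 428 ± 37.7 CPM in females and 234 ± 44.6 CPM in males (log2 0.87 ± 0.19, adjusted p = 0.0305), also opposite in sign to pcsk1. Of the 14 genes tested between the controls furinb alone was called, beside 4.4% of all genes. That furinb call ended without any 1 of the 6 libraries. In males the count of 3 fell to 1 without control replicate 1 or 2, and to 2 without exposed replicate 1.

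Of 42 receptor genes with a row, 34 were tested in males and 28 had a negative log2 fold change, with a median of -1.71 beside -0.16 over all genes. Called lower were 3, beside 7.25% of all genes, and none was called higher. The mu opioid receptor gene oprm1 fell from 24.8, 17.9 and 26.4 CPM to 7.20, 2.31 and 5.45 CPM (log2 -2.21 ± 0.50, adjusted p = 0.0319), but the values of exposed replicates 2 and 3 lie under their floors of 2.70 and 12 CPM, so the size is not read. The other calls, the kappa opioid receptor gene oprk1 and oxtr, were at 0 in all exposed males and at no more than 4.80 and 0.967 CPM in the controls, near or under the floors of the exposed libraries. The receptor count was 0 without any 1 male control, 17 of 36 without exposed replicate 2 (24.5% of all genes), 2 without a filter on low counts and 8 of 33 by DESeq2 (26% of all genes). Receptor genes at 0 numbered 0, 2 and 5 in the male controls and 24, 15 and 32 in replicates 1, 2 and 3 of the exposed males. The exposed libraries also had the higher rare-gene medians given above, and their part in this count was not tested. Between the controls 35 of 39 receptor genes were negative, with a median of -1.71 and none called (edgeR), and 10, 16 and 12 were at 0 in the female controls, whose depth was lower. In females 0 of 25 receptor genes passed at either dose or between doses, with medians of -0.24, -0.20 and -0.28.

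Of 35 other peptide precursor genes with a row, 22 were tested in males. Their log2 fold change was positive at 15 and negative at 7, with a median of 0.36 beside -0.16 over all genes. There 1 was called lower and 1 higher, beside 7.25% and 8.38% of all genes. apln, which encodes the peptide apelin, fell from 141, 117 and 96.5 CPM in control to 35.2, 56.5 and 42.3 CPM in exposed males (log2 -1.40 ± 0.26, adjusted p = 0.0175). nucb2a, the nesfatin precursor gene, rose from 16.2 ± 0.645 to 37.6 ± 7.54 CPM (log2 1.21 ± 0.24, adjusted p = 0.0222). In female controls apln was at 98.0, 96.3 and 113 CPM. At 40 µg/L it was lower without overlap, at 58.7, 63.0 and 46.1 CPM, and did not pass (log2 -0.87 ± 0.21, adjusted p = 0.0859, edgeR). At 200 µg/L it was at 123, 85.4 and 117 CPM and overlapped with the controls. The difference between the doses passed (log2 0.96 ± 0.21, adjusted p = 0.0359, edgeR). No other of the 23 precursor genes tested in females passed there, beside 3.93% of all genes. The call between doses ended without replicate 1 or 3 of either dose. In males the count of 2 fell to 0 without control replicate 1 or 2, to 1 without control replicate 3, and was 3 without exposed replicate 2.

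Of 13 transcription factor genes of the hypothalamus and preoptic area, 1 passed by edgeR in any comparison with all libraries. In female controls otpa, which specifies many neuroendocrine neurons, was at 75.3, 42.4 and 54.2 CPM. It was at 39.5, 40.0 and 41.1 CPM at 200 µg/L and at 147, 75.7 and 82.4 CPM at 40 µg/L. Between the doses it passed (log2 -1.34 ± 0.30, adjusted p = 0.0374, edgeR), with no overlap. That call ended without any 1 library of the 6 but replicate 2 at 40 µg/L. In that comparison 3.93% of all genes passed. There 11 of the 13 had a negative log2 fold change, with a median of -0.54 beside 0.01 over all genes. At 40 µg/L against controls 9 of 13 were positive in females, with a median of 0.27, and 6 of 13 in males, with a median of -0.01.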

How the data were processed

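Brain poly(A) libraries, 15 in all, were analysed from 2 deposited count tables of 14971 gene symbols. The deposited values are counts per gene, whole numbers whose totals differ between libraries. Per the submitters' processing notes, STAR, StringTie, Picard, FastQC and DESeq2 were used by the authors, with no version or role named. No source used here gives the genome build. The female control columns, identical in both tables, were used once.

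The tests used edgeR 4.0.16 under R 4.3.3 (filterByExpr, TMM factors, robust quasi-likelihood F test, Benjamini-Hochberg adjustment over all tested genes). Females were fitted in 9 libraries, males in 6, and the sexes together in 12. The tests were also run on simulated counts with known changed genes, whose outcome is not given here. Those counts carried neither the excess of multiples of 4 nor the differences in rare-gene medians. Printed CPM use TMM factors over all 15 libraries. Each SE is approximate, from the fold change and its F statistic. Floors of 3 times the rare-gene median cover counting error only.

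Members with every library's value are those called, the 3 smallest p per comparison, and those without overlap at a log2 fold change of at least 1; others were singled out after their values were seen. Members and lists were chosen with earlier results of these data known. Genes of other lists are named where called, up to 4 a list. Alternatives were DESeq2 1.42.0, median-of-ratios scaling, no filter, the replicate block and each library left out. Positions are those of the deposited tables, where agrp is listed on 2 contigs.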

Additional observations from a re-analysis of the deposited data

Results flagged for a closer look

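adcyap1a, the other PACAP gene, was singled out because every female library at 40 µg/L lay below the female control mean and every male library at 40 µg/L above the male control mean. It was at 2.16, 0.946 and 0.485 CPM in females at 40 µg/L and 8.66, 2.11 and 0.571 CPM in their controls, and at 7.01, 4.80 and 4.57 CPM in exposed and 4.88, 2.82 and 0.710 CPM in control males. The difference of the log2 fold changes, female minus male, was -2.62 ± 1.55 and did not pass (edgeR, adjusted p = 0.457). Several of these values lie under the floors of their libraries.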

How the results depend on the processing

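No named member changed sign under any alternative run that gave it an adjusted p. Runs that gave it none were not compared. DESeq2 called 4 members in females at 40 µg/L, 1 at 200 µg/L and 6 between these doses, where edgeR called 0. It called 8 members in males and 6 in the control comparison, where edgeR called 3 and 3, and 2 against 0 for the sex difference. Leaving out each library in turn gave 0 to 11 called members in males and 0 to 3 in the control comparison. It gave 0 to 1 between the female doses, 0 to 1 for the sex difference and 0 for each female dose against controls. The cause of these differences was not tested. Median-of-ratios scaling and no filter on low counts gave 3 in males and 3 between the controls and 0 elsewhere. Deviations from group means correlated at -0.126 to 0.101 between same-numbered libraries and at -0.0959 to 0.1 between differently numbered ones. These values cannot show whether a number marks a shared animal, batch or day, which the labels do not say. The fit with the replicate block called 2 members in males, without chga (adjusted p = 0.0663), 2 between the controls, without pcsk2 (0.0657), and 0 in the other comparisons. Over all genes that fit called 973 of 12454 in males and 283 of 13149 between the controls. It called 0 of 13149 for the sex difference. In females it called 0 of 12601 at 40 µg/L, 2 at 200 µg/L and 76 between the doses. A fit with replicate 2 alone for the females at 40 µg/L was added with the data in view. With a single library in that group its calls are not read. Members under about 12 CPM cannot be read in exposed male replicate 3, which had the highest floor, and depth differed between the groups of females and between the controls.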
